A study of Rattus norvegicus with 17 samples.

Results

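Tmlhe and Abhd14b encode enzymes that act on lysine derivatives, and their transcripts were followed here in rat kidneys after sub-total nephrectomy (SNx). They were chosen by name and identifier, as Tmlhe (ENSRNOG00000000729, chromosome 20) and Abhd14b (ENSRNOG00000012073, chromosome 8), and are 2 of the 23487 genes in the count tables. Both were among the 15438 genes with enough counts to be tested. The study had named both as candidates from results that included these kidneys, so a lower level after SNx is a description of these samples and not independent evidence of its direction.

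The series holds kidney RNA from 12 SNx and 5 NoOp libraries, all of male Wistar Han rats. In SNx rats part of the right kidney was resected and the left kidney was removed in a later operation, so that a shrunken remnant carries all filtration and fails over the following weeks. SNx rats were to be culled when proteinuria or serum creatinine passed a preset threshold, but only a minority of the operated rats of this experiment reached it. The labels do not say which of the 12 did, but rats that did not reach it must make up at least as many of them as rats that did. The study reports that rats of this experiment were terminated on different days, up to weeks apart. The day is not known here for any library, so its part in the differences between libraries was not tested. The labels call the controls NoOp and their treatment protocol calls such tissue healthy, whereas the methods describe the controls of this experiment as sham-operated, and the name NoOp is kept here. Age is not given in the sources used here. The total count of a library lay between 19210434 and 30784070 among SNx and between 30454170 and 43876369 among NoOp kidneys, so the remnant kidneys were counted less deeply. Identification numbers in the sample titles fall into 2 ranges, with SNx 1 to 6 and all NoOp libraries in the lower range and SNx 7 to 12 in the upper. RNA integrity is given in the methods only as a range over all samples, which runs from strongly degraded to largely intact RNA, and not per library, so its part in the differences between libraries was not tested.

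Tmlhe is trimethyllysine dioxygenase, a mitochondrial enzyme that uses 2-oxoglutarate, iron and oxygen to hydroxylate trimethyllysine, which is released when proteins carrying methylated lysine are broken down. This is the first step of carnitine synthesis, and carnitine carries long-chain fatty acids into mitochondria, where the proximal tubule burns them as its main fuel. Abhd14b is a serine hydrolase of the alpha/beta-hydrolase fold that has been described as a lysine deacetylase, moving the acetyl group from lysine to coenzyme A and so yielding acetyl-CoA. The proximal tubule, which reabsorbs most of the filtrate, makes up most of the kidney cortex and is rich in mitochondria.

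The sequences upstream of both genes are shown because the transcripts rose and fell together among the SNx kidneys, as described below. They come from RefSeq, on build GRCr8, which is newer than the rn6 reference behind the counts. The Tmlhe window is chr20:96363-96560 on the plus strand, 198 bases that end just before the first base of any RefSeq Tmlhe transcript, and the Abhd14b window is chr8:115966542-115966791 on the plus strand, the 250 bases before the transcript start. Capitals mark matches to GGGCGG, the GC box.
Tmlhe: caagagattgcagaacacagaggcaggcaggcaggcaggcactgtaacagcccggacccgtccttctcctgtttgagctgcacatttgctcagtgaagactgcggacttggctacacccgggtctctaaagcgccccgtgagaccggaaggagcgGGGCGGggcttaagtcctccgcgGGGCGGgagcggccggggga
Abhd14b: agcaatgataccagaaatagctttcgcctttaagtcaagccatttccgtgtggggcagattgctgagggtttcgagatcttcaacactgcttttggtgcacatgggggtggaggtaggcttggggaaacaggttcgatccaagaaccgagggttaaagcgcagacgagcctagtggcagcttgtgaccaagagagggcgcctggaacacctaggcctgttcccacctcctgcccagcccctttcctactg

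The 2 windows differ in composition. The Tmlhe window is 64.1% G and C with 14 CpG dinucleotides, and 15.7% of 33469 rat promoters have as high a share over the same length, whereas the Abhd14b window is 54.4% G and C with 8 CpG dinucleotides, a share that 40.5% reach. Both strands were searched for 3 short motifs that do not overlap here. The GC box, spelled GGGCGG, stood 2 times in the Tmlhe window, both on the plus strand, and was not found for Abhd14b. Of all promoters cut to the same lengths, 23.9% and 30.5% hold it. The CCAAT box, spelled by its name, was found in neither window and is held by 28.5% and 34% of promoters. A nuclear receptor half-site, spelled AGGTCA, was found in neither and is held by 11.1% and 14.1%. A match or its absence describes these letters in this window and says nothing of what binds there.

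Both transcripts were lower in every SNx kidney than in any NoOp kidney, Tmlhe by about 3-fold and Abhd14b by little over 2-fold. Levels are log2 CPM, in which counts are set against the library total after TMM scaling for library composition. Tmlhe was at 7.55, 7.93, 7.95, 8.08 and 8.0 log2 CPM in NoOp 1 to NoOp 5. Across the 12 SNx kidneys its lowest level was 4.0, its median 6.26 and its highest 7.35. The groups did not overlap, and a gap of 0.21 separated the highest SNx from the lowest NoOp library. Group means (± SD) were 6.02 ± 1.03 over 12 SNx and 7.90 ± 0.20 over 5 NoOp libraries. The log2 fold change of Tmlhe in the quasi-likelihood fit across all genes (edgeR) was -1.61 ± 0.38 (SE), with an adjusted p of 0.0021, which is 3.04-fold lower. The difference between mean log2 levels was larger, -1.88, because a fold change of mean counts gives more weight to the SNx libraries with high counts.

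Abhd14b was at 7.82, 8.01, 7.86, 8.10 and 7.84 log2 CPM in NoOp 1 to NoOp 5. Its lowest level among SNx kidneys was 5.16, its median 6.68 and its highest 7.49. The separation was again complete, with a gap of 0.32. Mean levels (± SD) were 6.6 ± 0.72 over 12 SNx and 7.93 ± 0.12 over 5 NoOp libraries. For Abhd14b the same fit gave a log2 fold change of -1.18 ± 0.28 (SE) and an adjusted p of 0.0021 (edgeR), or 2.27-fold lower, and its mean log2 levels differed by -1.33.

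**Figure D1:**
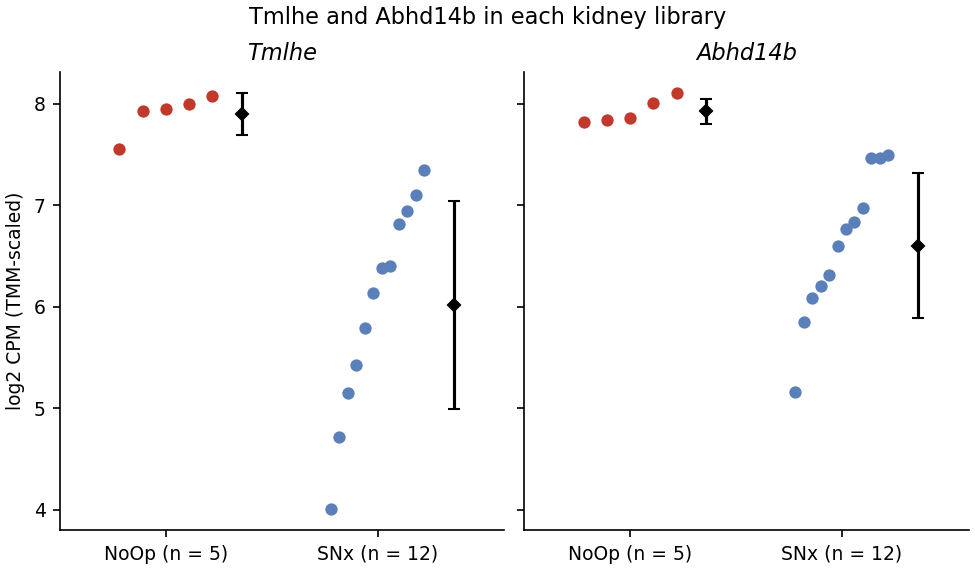
Levels of Tmlhe and Abhd14b in log2 CPM on the vertical axis for 5 NoOp (red) and 12 SNx (blue) libraries, with a point per library ordered by level within its group and a black diamond with bar for the mean ± SD. Every SNx point lies below every NoOp point in both panels, and the SNx points spread from 4.0 to 7.35 for Tmlhe and from 5.16 to 7.49 for Abhd14b.

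A lower level after SNx was common in these kidneys. Of all tested genes, 58% passed FDR < 0.05, 27.7% as lower and 30.3% as higher in SNx, and 9.6% had every SNx library below every NoOp library. The size of the fall was less common. Only 2.16% of tested genes had a fold change as low as that of Tmlhe and 4.98% as low as that of Abhd14b, where the median log2 fold change was 0.02. In whole-kidney RNA, fewer cells of a type and less RNA per cell cannot be told apart.

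The level lost differed widely from kidney to kidney. Relative to the geometric mean of the NoOp libraries, Tmlhe was at 6.70%, 11%, 14.9% and 17.9% in the 4 lowest kidneys, SNx 1, SNx 5, SNx 6 and SNx 10. It was at 68.0%, 57.3%, 51.7% and 47.2% in the 4 highest, SNx 11, SNx 9, SNx 4 and SNx 2. The other 4, SNx 8, SNx 12, SNx 3 and SNx 7, lay at 23.1% to 35.3%. Among operated rats the Tmlhe level thus ran over a 10.1-fold range. Abhd14b ran over a 5.05-fold range, from 14.7% of the NoOp level in SNx 1 to 74.0% in SNx 9, with a median of 42.3%.

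Tmlhe had 333 to 4257 counts per SNx library and Abhd14b 743 to 5599, at which counting error was at most 5.48% and 3.67% of the level. The SD in SNx was 5.02 times that in NoOp for Tmlhe and 5.77 times for Abhd14b, against a median SD over all tested genes of 0.29 in SNx and 0.17 in NoOp. A spread among SNx libraries at least as wide was found in 5.20% of tested genes for Tmlhe and in 11.6% for Abhd14b. Means by range of numbers overlapped within their spread. Tmlhe was at 5.67 ± 1.22 log2 CPM in the SNx libraries of the lower range and 6.36 ± 0.74 in those of the upper (SD, n = 6 each), and Abhd14b at 6.41 ± 0.84 and 6.79 ± 0.58.

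Tmlhe fell further than Abhd14b. Within a library, the log2 level of Tmlhe minus that of Abhd14b does not depend on library scaling, and gene length cancels when this difference is compared between groups. It was -0.27, -0.08, 0.09, -0.02 and 0.16 in NoOp 1 to NoOp 5, close to 0. In SNx its lowest value was -1.15, its median -0.49 and its highest -0.12. SNx 1, SNx 5 and SNx 6 were lowest, all below -1, and 10 of 12 SNx libraries lay below every NoOp library, the exceptions being SNx 2 and SNx 11. Mean differences (± SD) were -0.58 ± 0.35 over 12 SNx and -0.03 ± 0.16 over 5 NoOp libraries, a change of -0.56 (two-sided exact permutation test over 6188 splits, p = 0.0053, adjusted p = 0.016 over 3 such tests).

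Among SNx kidneys the transcripts varied together. The same 5 kidneys, SNx 1, SNx 5, SNx 6, SNx 8 and SNx 10, were lowest for both, and the same 4, SNx 2, SNx 4, SNx 9 and SNx 11, were highest. Over the 12 SNx libraries Pearson's r was 0.981 and Spearman's rho 0.965 (permutation p = 1e-05 for each, the smallest that 100000 permutations can give; adjusted p = 2.75e-05 and 5.5e-05 over 11 relations). Leaving out SNx 1 and SNx 5, which lie farthest from the median of Tmlhe, r was 0.962 (permutation p = 3e-05, n = 10). Within the SNx libraries of the lower range of numbers r was 0.981 (exact permutation p = 0.0014, n = 6), and within the upper range 0.991 (exact permutation p = 0.0028, n = 6). The least-squares line of Tmlhe on Abhd14b rose by 1.41 log2 units of Tmlhe per log2 unit of Abhd14b, with a residual SD of 0.21. NoOp libraries, which did not enter the line, lay -0.18 to 0.23 from it, no farther than the largest SNx residual of 0.31.

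**Figure D2:**
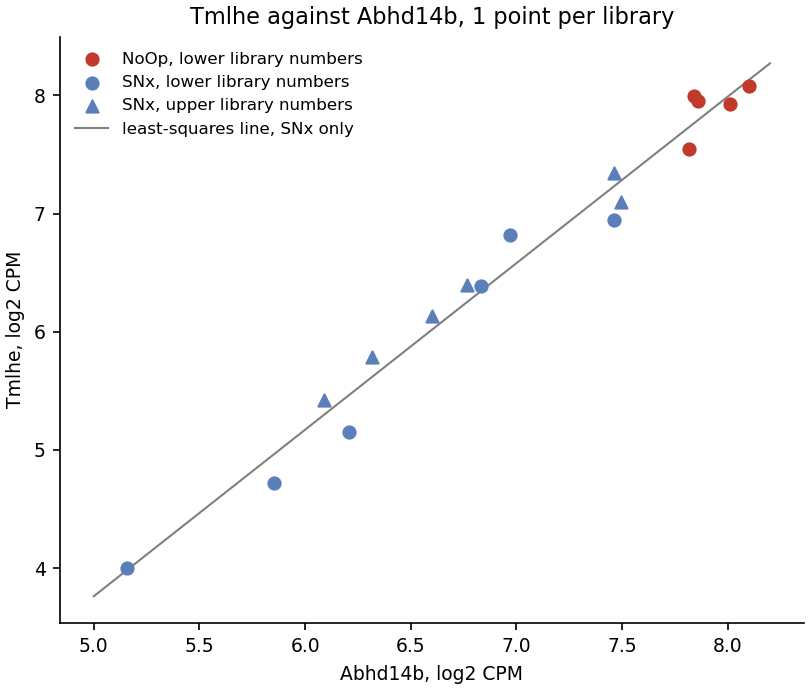
Tmlhe (vertical axis) against Abhd14b (horizontal axis), both in log2 CPM, for 12 SNx (blue) and 5 NoOp (red) libraries, with circles for the lower and triangles for the upper range of library numbers and a grey least-squares line over SNx libraries. SNx points follow the line with a slope of 1.41, and the NoOp points at its upper end lie -0.18 to 0.23 from it.

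Such agreement was shared with many genes. Of 13185 tested genes whose mean reached 1 log2 CPM, 10.1% had r of at least 0.9 with Tmlhe and 5.11% had r of -0.9 or lower, and for Abhd14b these shares were 10.9% and 5.29%. In the list of genes most like Tmlhe, Abhd14b stood at rank 88, and 0.667% of genes had as high an r. In the list for Abhd14b, Tmlhe stood at rank 72, with 0.546% of genes as high. Depth moved with both members. Over the SNx libraries r with total counts was 0.681 for Tmlhe (rho 0.643, permutation p = 0.015 and 0.028, adjusted p = 0.018 and 0.044) and 0.718 for Abhd14b (rho 0.748, permutation p = 0.0089 and 0.007, adjusted p = 0.012 and 0.013). Without SNx 1 and SNx 5 these r were 0.645 and 0.687; within the lower range they were 0.839 and 0.820 and within the upper 0.576 and 0.655, where no exact permutation p was under 0.05 (n = 6). The part of depth in the co-variation was not tested.

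The genes with a symbol whose pattern over the 12 SNx libraries was most like that of Tmlhe were Gk (r = 0.996), glycerol kinase, Hadh (0.994), which oxidises hydroxyacyl-CoA, RGD1309534 (0.993), Aldh6a1 (0.991), of valine breakdown, and Hgd (0.991), of tyrosine breakdown. Those most like Abhd14b were Hibadh (0.992), of valine breakdown, Ghr (0.990), the growth hormone receptor, Gchfr (0.988), which regulates GTP cyclohydrolase, RGD1305347 (0.988) and Gstt2 (0.988), a glutathione transferase. Without a symbol, ENSRNOG00000016807 (0.991) and ENSRNOG00000015205 (0.990) were most like Tmlhe, and ENSRNOG00000003653 (0.994) and ENSRNOG00000017032 (0.994) most like Abhd14b. All 14 were lower in SNx, with log2 fold changes from -1.70 for RGD1309534 to -0.97 for ENSRNOG00000003653, and in 12 of them the groups did not overlap. Of all tested genes 27.7% were lower and 9.6% had every SNx library below every NoOp library. Among tested genes with a symbol these shares were 40.5% and 26.7%. The 14 were picked by likeness to a member that fell, so their fall is not a separate result. Most opposite among genes with a symbol were Zyx (r = -0.988 with Tmlhe) and Pdlim7 (r = -0.991 with Abhd14b), which both encode proteins of the actin cytoskeleton and had log2 fold changes of 0.94 and 1.67.

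Markers of cell types and the pathways around both members were examined from lists written by role. Only genes with a known symbol could be placed in a list. Those 2003 tested genes are ones the study had listed as changed in this experiment or in another of the same model, and 94% of them passed FDR < 0.05 here, 40.5% as lower and 53.4% as higher in SNx. A high count of passing members in a list therefore says little by itself, and the direction is read against those shares. Their median log2 fold change was 0.49.

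Proximal tubule markers moved in step with both members. Of 30 such markers 20 had an identifier, and all 20 were lower in SNx, as were 40.5% of tested genes with a symbol and 27.7% of all tested genes. Their median log2 fold change was -1.48, beside 0.49 for genes with a symbol and 0.02 for all; 7 had a lower fold change than Tmlhe and 17 a lower one than Abhd14b. With the SNx libraries of the lower range alone, 11 of the 20 passed. The sum of the 20 was 2262 to 24807 CPM in SNx and 35095 to 44280 CPM in NoOp libraries, and none was at 0 in any library, so markers that define kidney tissue were present in all 17 libraries. Their mean log2 level ran with Tmlhe over the SNx libraries at r = 0.974 (rho 0.951, permutation p = 1e-05 for each, adjusted p = 2.75e-05 and 5.5e-05) and with Abhd14b at r = 0.969 (rho 0.958, permutation p = 1e-05 and 2e-05, adjusted p = 2.75e-05 and 5.5e-05). Without SNx 1 and SNx 5 these r were 0.939 and 0.932, and they were at least 0.936 within either range of numbers.

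Measured against the mean of these 20 markers, neither enzyme differed between the groups after adjustment. Markers that the study did not list as changed are missing from that mean, so it may overstate the fall of proximal tubule markers. How far the 2 enzymes differ from each other on this measure is the Tmlhe minus Abhd14b difference given above. The level of Tmlhe minus the marker mean was -2.45, -2.25, -1.82, -2.06 and -1.74 in NoOp 1 to NoOp 5, and its lowest, median and highest values in SNx were -2.54, -2.04 and -1.43. The groups overlapped, and the mean difference of 0.05 was well inside the SDs of 0.34 in SNx and 0.29 in NoOp (two-sided exact permutation test, p = 0.798, adjusted p = 0.798 over 3 tests). Its sign turned without SNx 1, SNx 10, NoOp 1 or NoOp 2, with values between -0.0508 and 0.126 over the left-out libraries.

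For Abhd14b the level minus the marker mean was -2.18, -2.17, -1.91, -2.04 and -1.90 in NoOp 1 to NoOp 5, and its lowest, median and highest values in SNx were -2.10, -1.64 and -0.27. In 9 of 12 SNx libraries it was above every NoOp library, most of all in SNx 1, SNx 5 (-0.69) and SNx 10 (-0.84), which had the lowest marker means. The mean difference was 0.60 (two-sided exact permutation test, p = 0.033), but did not pass after adjustment over 3 tests (exact permutation, adjusted p = 0.0502). Without NoOp 1 the unadjusted exact permutation p was 0.0637 and without NoOp 2 it was 0.0626, at differences of 0.567 and 0.570. After the marker mean was subtracted from both, Tmlhe and Abhd14b had r = 0.833 over the 12 SNx libraries (permutation p = 0.00061) and rho 0.818 (permutation p = 0.0018). Both values then share the subtracted mean, whose SD of 1.25 in SNx exceeds those of Tmlhe (1.03) and Abhd14b (0.72). A positive r can arise from that shared term alone, so these p-values cannot show a relation beyond the markers. Within the lower and upper range of numbers that r was 0.895 and 0.914 (n = 6 each), and without SNx 1 and SNx 10, farthest from the median of the relative Tmlhe level, it was 0.649 (permutation p = 0.04, n = 10).

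The markers of injured tubule cells, leukocytes and fibroblasts that could be read were higher in SNx. Markers that the study did not list as changed could not be read. The study discusses Havcr1 (KIM1) beside Lcn2 and reports no significant rise of its transcript in kidney. Havcr1 is not among the markers read here. Of 12 injured tubule markers 9 had an identifier and all 9 were higher, where 53.4% of tested genes with a symbol and 30.3% of all were, with a sum of 3905 to 18695 CPM in SNx against 949 to 1304 CPM in NoOp, among them Clu (log2 fold change 3.83), Spp1 (4.44) and Lcn2 (5.06). Their mean log2 level ran against Tmlhe at r = -0.930 (rho -0.937, adjusted permutation p = 2.75e-05 and 5.5e-05) and against Abhd14b at r = -0.910 (rho -0.888, adjusted permutation p = 8.8e-05 and 0.00066). Without SNx 1 and SNx 5 these r were -0.917 and -0.891, and within the ranges of numbers they lay between -0.927 and -0.868. Kidneys with little Tmlhe and Abhd14b were thus those with a high mean of these 9 markers.

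All 12 of 22 leukocyte markers with an identifier were higher, against the same 53.4% and 30.3%, at a sum of 314 to 812 CPM in SNx against 119 to 189 CPM in NoOp, with Ptprc, the pan-leukocyte marker, at a log2 fold change of 2.18, Cd79b of B cells at 3.96 and Cd68 of macrophages at 2.63. The same held for 6 of 14 fibroblast and myofibroblast markers, at 1906 to 12210 CPM against 580 to 676 CPM, with Col3a1 at 2.74, Fn1 at 2.02 and Vim, which the injured tubule list also holds, at 2.15. No marker of any list was at 0 in any library, but Cd79b was near the floor in NoOp, at a mean of -1.47 log2 CPM. Over the SNx libraries the leukocyte mean had r = -0.525 with Tmlhe and -0.542 with Abhd14b (rho -0.441 and -0.427, adjusted permutation p of r = 0.08 and 0.0748), and this relation rested on SNx 1 and SNx 5, since without them r was -0.006 and -0.066. For the fibroblast mean r was -0.725 and -0.748 (rho -0.629 and -0.608, adjusted permutation p of r = 0.0079 and 0.0073) and -0.346 and -0.404 without those libraries. Within the lower and upper range the fibroblast r was -0.748 and -0.451 for Tmlhe and -0.830 and -0.441 for Abhd14b, and the leukocyte r was -0.677 and -0.098 for Tmlhe and -0.785 and -0.047 for Abhd14b. In 2 further groups only 1 marker each had an identifier, too few to speak for the group. Both markers were lower, as were 40.5% of tested genes with a symbol and 27.7% of all, and for both the SNx and NoOp levels overlapped. The 1 marker of other tubule segments with an identifier, Slc26a4 of intercalated cells, had a log2 fold change of -0.72, and the 1 of glomerulus and endothelium, Ehd3, of -0.73. The part of these cell types in the lower level of either member was not tested.

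**Figure D3:**
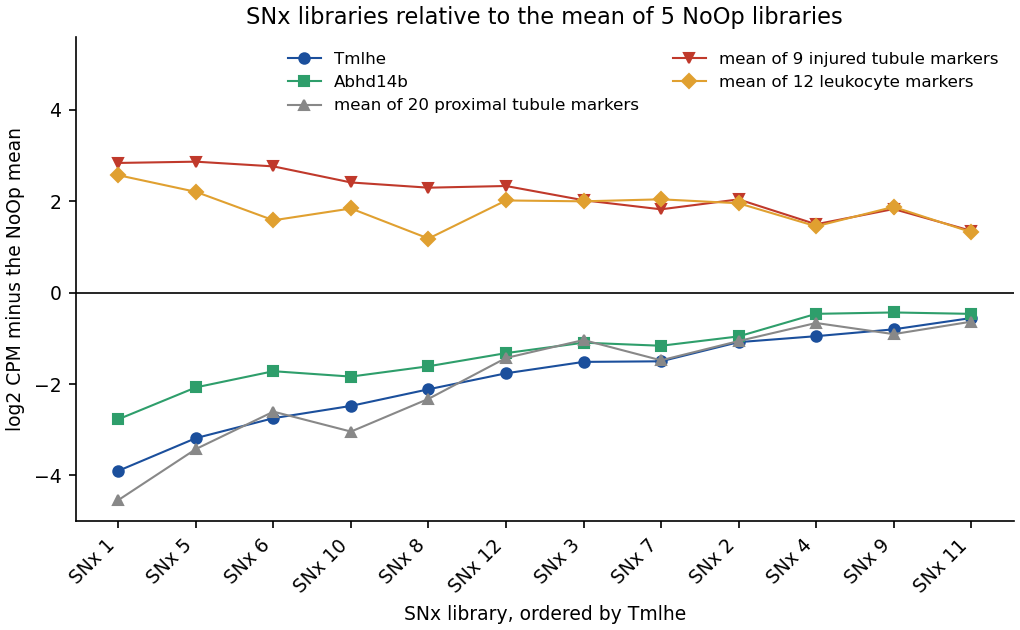
Log2 CPM minus the mean of the 5 NoOp libraries (vertical axis) for Tmlhe, Abhd14b and the mean of each of 3 marker lists, in the 12 SNx libraries ordered from lowest to highest Tmlhe (horizontal axis). Tmlhe and the proximal tubule mean (grey) run close together from SNx 1 to SNx 11, Abhd14b lies above both in the kidneys with the lowest levels, the injured tubule mean (red) declines along the same order, and the leukocyte mean (yellow) is highest in SNx 1 and SNx 5.

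In carnitine synthesis, Shmt2, a mitochondrial serine hydroxymethyltransferase listed for the aldolase step after Tmlhe, was the only other member of 5 with an identifier. Its log2 fold change was -0.89 ± 0.22 (SE), with an edgeR adjusted p of 0.0025. Of 14 genes of carnitine transport and the acylcarnitine shuttle, 4 had an identifier and all 4 were lower. Among tested genes with a symbol 40.5% were lower, and among all tested genes 27.7%. The median log2 fold change of the 4 was -0.71, above those of both members. Cpt1a, which couples fatty acids to carnitine at the outer mitochondrial membrane, had a log2 fold change of -0.59, Crat, the carnitine acetyltransferase, -0.83, Crot, its peroxisomal octanoyl counterpart, -0.33, and Slc16a9, a carnitine carrier, -1.08. The call of Slc16a9 was lost without NoOp 2 (edgeR adjusted p = 0.051), and that of Crot when libraries were scaled by size alone (edgeR adjusted p = 0.21) or a change of at least 1.5-fold was required.

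Lysine breakdown was lower throughout the part that could be read. All 14 of 23 members with an identifier were lower in SNx (median log2 fold change -1.32), as were 40.5% of tested genes with a symbol and 27.7% of all. In 10 the groups did not overlap. Of tested genes with a symbol, 26.7% had every SNx library below every NoOp library. Hadh, Etfdh and Etfa are also members of the fatty acid oxidation list, so these lists are not separate. None of the 14 had a lower fold change than Tmlhe, and 10 had a lower one than Abhd14b. Slc25a21, the mitochondrial carrier of 2-oxoadipate, fell by 1.46 on the log2 scale. It was scarce, at a mean of 0.40 log2 CPM in SNx and 1.89 in NoOp. Hadh fell by 1.35 and Etfdh, which passes electrons from acyl-CoA dehydrogenases to ubiquinone, by 1.19. Phykpl, which breaks down phosphohydroxylysine, fell by 0.92 (adjusted p at most 0.000465 for each of these genes, edgeR). Aass, which starts lysine breakdown in mitochondria, was picked after its values were seen and fell by 1.32 ± 0.44 (SE, edgeR adjusted p = 0.017). Over the SNx libraries the median r of the members whose mean reached 1 log2 CPM was 0.971 with Tmlhe and 0.965 with Abhd14b. That median leaves out Slc25a21, which had r = 0.884 and 0.890.

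Of the enzyme class of Tmlhe, the 2-oxoglutarate dioxygenases, only 6 of 62 members had an identifier. Besides Tmlhe, 2 were lower, 2 were higher and 1 did not pass. Among tested genes with a symbol 40.5% were lower and 53.4% higher, and among all tested genes 27.7% and 30.3%. So few members do not show a direction for the class. P3h2, a collagen prolyl hydroxylase, had a log2 fold change of -0.75 and Phyhd1, a relative of phytanoyl-CoA hydroxylase, of -1.15. P3h3, another collagen prolyl hydroxylase family member, rose by 1.10 and Kdm5a, a histone demethylase, by 0.34, a rise that did not pass where at least 1.5-fold was required, which left 1 higher member. Egln3, a prolyl hydroxylase of hypoxia-inducible factor that is named because it completes the count, had -0.08 ± 0.12 (SE, edgeR adjusted p = 0.60).

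On the side of Abhd14b, none of 18 other lysine deacetylases (histone deacetylases and sirtuins) had an identifier, so no comparison was made with them. Of 20 lysine acetyltransferases Kat2a alone had an identifier and rose by 0.49 ± 0.14 (SE, edgeR adjusted p = 0.0080), which did not pass where at least 1.5-fold was required. All 5 of 13 genes of acetyl-CoA supply with an identifier were lower, as were 40.5% of tested genes with a symbol and 27.7% of all. The median log2 fold change of the 5 was -0.95. Acss2, the cytosolic acetyl-CoA synthetase, was the only member past Tmlhe, at -1.76. Slc33a1, which carries acetyl-CoA into the endoplasmic reticulum, was at -0.75, Pdha1 and Pdhb, subunits of pyruvate dehydrogenase, at -0.95 and -0.98, and Acss3, a mitochondrial acyl-CoA synthetase, at -0.81. Acss2 completes this count and was not picked by its p-value.

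In the ABHD family, 3 other members of 21 had an identifier. Abhd14a had a log2 fold change of -1.59 ± 0.37 (SE, edgeR adjusted p = 0.0017). That of Abhd1 was -1.18 ± 0.25 (SE, edgeR adjusted p = 0.0011), so both fell. Abhd12, a lipase of lysophosphatidylserine, had 0.12 ± 0.06 (SE, edgeR adjusted p = 0.078), a value that passed the threshold without SNx 8, with library size alone, with the deposited log2 values and with the SNx libraries of the lower range. Of these 3 members 2 were lower, where 40.5% of tested genes with a symbol and 27.7% of all tested genes were. So few members do not show a direction for the family.

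Fatty acid oxidation, which depends on carnitine for long-chain fatty acids, was lower in 17 of 18 members with an identifier (of 30 listed). Of tested genes with a symbol 40.5% were lower, and of all tested genes 27.7%. The median log2 fold change of the 18 was -1.12. Acad10, of the acyl-CoA dehydrogenase family, was at -1.57. The exception was Acsl5, a long-chain acyl-CoA synthetase, which rose by 0.82 with no overlap between groups.

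**Figure D4:**
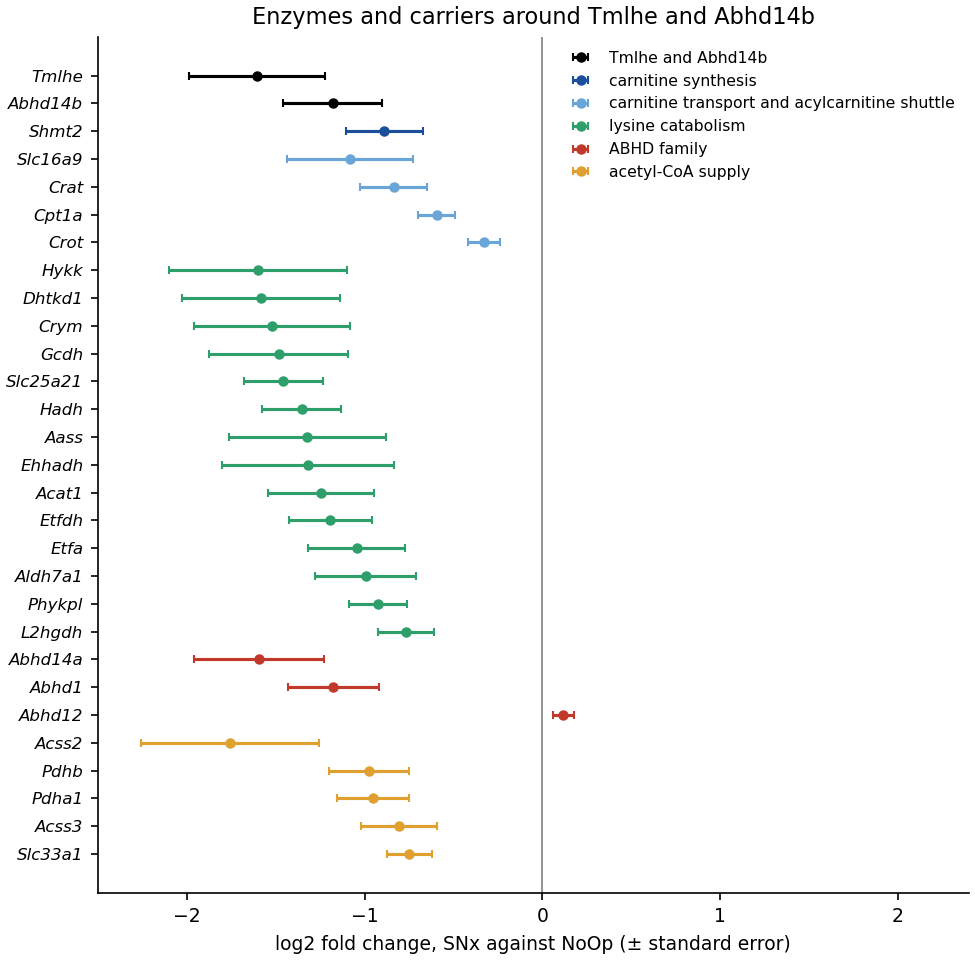
Log2 fold change of SNx against NoOp with its standard error (horizontal axis) for Tmlhe and Abhd14b (black) and the members with an identifier of 5 lists, colored by list. Abhd12 is the only gene right of 0, the 14 genes of lysine breakdown lie between -1.60 and -0.77, and the 4 of carnitine transport and the shuttle between -1.08 and -0.33.

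Abhd14b lies beside Abhd14a on chromosome 8, in opposite directions with their starts facing each other, and Acy1 follows on the side of Abhd14a in the RefSeq gene order of GRCr8, in which Abhd14a and Abhd14b do not overlap. Abhd14a, also an alpha/beta-hydrolase, was at 6.09, 6.35, 6.31, 6.17 and 6.36 log2 CPM in NoOp 1 to NoOp 5, and from 2.98 in SNx 5 to 5.65 in SNx 11. All SNx libraries were below all NoOp libraries, and r with Abhd14b over the 12 SNx libraries was 0.955. Acy1, aminoacylase, which frees amino acids from their N-acetyl forms, had a log2 fold change of -1.64 ± 0.44 (SE, edgeR adjusted p = 0.0049) and r = 0.983 with Abhd14b. Parp3, further along on the other side, rose by 0.74 ± 0.10 (SE, edgeR adjusted p = 1.35e-05) on the log2 scale, with r = -0.535. Acy1 and Parp3 were picked after their values were seen, as the other neighbours with an identifier. Whether estimated counts of these adjoining genes share reads was not tested. The RefSeq neighbours of Tmlhe, Or2n1el1 and Clic2, were not analysed here.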

How the data were processed

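Kidney RNA of 12 SNx and 5 NoOp rats was depleted of ribosomal RNA and sequenced paired-end as strand-specific libraries. One label names polyA RNA, whereas the extraction protocol describes ribosomal depletion. The authors quantified reads against rn6 transcripts (the submitters' processing notes name Salmon, without a version), summarised them per gene with tximport and deposited estimated counts as whole numbers. The authors also deposited log2 values after limma's voom transformation for 13318 genes. The 34 columns of the whole-series tables repeat the tables per library and were not used.

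Estimated counts, rounded to whole numbers, were tested with edgeR 4.0.16 in R 4.3.3 (filterByExpr, TMM, quasi-likelihood test, two-sided, Benjamini-Hochberg over 15438 genes, FDR < 0.05). Log2 CPM used a prior count of 2. Single values were compared with exact permutation tests over 6188 splits, whose smallest p is 0.000162, and correlations with 100000 permutations. Alternatives were DESeq2 1.42.0, limma-voom and limma on deposited values (limma 3.58.1), robust dispersions, RLE factors, scaling by library size only, a minimum of 10 counts per library or none, a 1.5-fold minimum, either range of library numbers, and each library left out. Correlation after subtracting the marker mean was chosen after seeing the data. The genewise tests were tested on simulated data. Figures used Python 3.11.15 and matplotlib 3.10.9.

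The members and the 15 gene lists were chosen with earlier results of these data known. Named genes are at most 4 per pathway list and 3 per marker list by smallest p, and per member the 5 genes with and 2 without a symbol of highest r; 1 gene picked by this rule is not reported here. Symbols came only from the part of the study's supplementary gene lists used here, which paired 2007 identifiers with a symbol. Libraries are numbered in accession order within a group and come from separate rats as far as the methods say, and no 2 libraries of a group agreed within counting noise (chi-square over its degrees of freedom at least 21.9). Counting errors cover counting only, since no molecular identifiers are mentioned. Standard errors (SE) were computed as the fold change divided by the square root of F.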

Additional observations from a re-analysis of the deposited data

Results flagged for a closer look

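Groups of 5 NoOp libraries were examined for 54 values with Dixon's ratio of the gap to the range, at a limit of 0.71, and 2 stood out where chance gives 2.7. Aqp1, the water channel of the proximal tubule, was at 10.99 log2 CPM in NoOp 1 and at 11.49 to 11.68 in the others. Ptprc, the pan-leukocyte marker, was at 2.85 log2 CPM in NoOp 5 and at 3.87 to 4.28 in the others. Tmlhe came just short of the limit, at a ratio of 0.707, since NoOp 1 was at 7.55 log2 CPM and the others at 7.93 to 8.08. For Abhd14b the ratio was 0.327.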

How the results depend on the processing

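Both members were lower in SNx and past FDR < 0.05 under all 11 other settings and 17 left-out libraries, with log2 fold changes for Tmlhe of -1.88 to -1.38 and -1.75 to -1.50, and for Abhd14b of -1.33 to -0.99 and -1.27 to -1.09. Scaling by library size alone moved the median of all genes from 0.02 to 0.23 and the share of higher calls from 52.2% to 74.6%. Relative to that median Tmlhe was at -1.65 in place of -1.63 and Abhd14b at -1.22 in place of -1.20. Genes called numbered 8949, 7914 to 9438 over left-out libraries, and 5165 with at least 1.5-fold. The Tmlhe minus Abhd14b change was -0.618 to -0.506 over left-out libraries and -0.717 to -0.398 otherwise, and their r 0.969 to 0.984 over left-out libraries. Against the proximal tubule mean, with the lower range of numbers alone, the Tmlhe difference was -0.00940 (exact permutation p = 0.965) and that of Abhd14b 0.708 (exact permutation p = 0.0801). Over left-out libraries they ran from -0.0508 to 0.126 and from 0.497 to 0.663. The cause was not tested. For 49 named genes, 1361 of 1370 values kept direction and call, 5 lost the call, 4 (all Abhd12) gained it and 0 reversed. No paired analysis was possible because the labels carry no replicate numbers shared between groups. Counting error was small for both members, whose lowest count was 333, but the part of depth in their levels was not tested. Most list members had no identifier.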
